A study of Mus musculus with 8 samples.

Results

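The genes described here are 10 genes of mouse embryonic stem cells, most of them known from the two-cell-like state: Zscan4c, Zscan4d, Zscan4f, Usp17la, Tcstv1, Tcstv3, Zfp352, Arg2, Sp110 and Eif1a. They were taken up because of their values in the genotype comparison of these same arrays, so they were chosen by the difference between the arrays labelled knockout and the J1 arrays. Every probe set whose symbol field held one of these names was kept, which gave 14 of 45037 probe sets. Of these, 12 carried 1 symbol and 2 carried several, and the several-symbol probe sets were kept as units and are given apart.

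RNA had been hybridised to 8 Affymetrix arrays in 4 groups of 2 arrays: Rex-1 knockout cells without LIF, J1 cells without LIF, Rex-1 knockout cells with LIF and J1 cells with LIF. J1 is a wild-type line of mouse embryonic stem cells, Rex-1 is the zinc finger protein encoded by Zfp42, and LIF is the cytokine that keeps mouse embryonic stem cells undifferentiated. The knockout cells are of the J1 line by their labels, and the labels do not say whether they were 1 clone. All cells grew in serum on gelatin without a feeder layer named. The extraction text, identical for all 8 arrays, gives 12 hours without LIF, and for the knockout arrays whose titles say minus LIF the growth text mentions LIF. Titles and treatment text were followed. The design text describes the arrays of a group as biological replicates, here the first and the second array. The standard errors (SE) rest on the spread between such arrays, pooled over the 4 groups and moderated by limma across all fitted probe sets.

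Values are deposited signal intensities taken to log2, so that 1 unit is a doubling. Across the arrays the median signal was 114.2 to 143.5 and 85.2% to 91.2% of probe sets had a log2 of at least 4. The probe set of Zfp42 read 14.07 and 14.03 in the knockout arrays without LIF, 14.15 and 14.33 in J1 without LIF, 14.14 and 14.08 in the knockout arrays with LIF, and 14.17 and 14.51 in J1 with LIF. Its signal was thus not lost in the arrays labelled knockout, and the sources used here do not place this probe set inside or outside the deleted part. The word knockout below means the arrays so labelled.

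The two-cell-like state is a rare and transient condition in which an embryonic stem cell turns on transcripts of the embryo at zygotic genome activation. The transcription factor Dux and its target retroelement MERVL act at its centre, and the Zscan4 cluster, which encodes SCAN-domain zinc finger proteins that act on telomeres and genome stability, marks a wider and overlapping state. Many of these genes lie in clusters of near-identical copies, so that a short probe can detect several of them. Cells in the state are few, and in RNA from a whole dish more cells in the state and more RNA per cell cannot be told apart.

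The 2 several-symbol probe sets list such copies among their symbols. One (1457033_at) lists Zscan4f, Zscan4d, Zscan4a, Zscan4c, LOC100862413 and LOC100862415. The other (1427479_at) lists Gm4027, BB287469 and Eif1a, of which Gm4027 and BB287469 belong to the Eif1a-like genes known from the embryo. In RefSeq annotation Zscan4a, Zscan4c, Zscan4d and Zscan4f lie on chromosome 7, with Zscan4a a transcribed pseudogene, and Gm4027 and BB287469 lie on chromosome 12. LOC100862413 and LOC100862415 are protein-coding genes on chromosome 6, and their likeness to the Zscan4 genes was not compared. The reference table of promoters held 6 of the 10 genes, and Arg2, Eif1a, Tcstv1 and Tcstv3 are named only.

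The start regions of the Zscan4 copies are shown to let their likeness in this stretch be seen. They lie mostly before the gene start, and probe sequences were not compared, so why the probe set is shared was not tested. Each is 300 bases from RefSeq on build GRCm38.p6, of which 250 lie before the annotated gene start, written 5′ to 3′ on the gene's strand. They are Zscan4c at chr7:11005495-11005794 on the plus strand, Zscan4d at chr7:11166099-11166398 on the minus strand and Zscan4f at chr7:11397665-11397964 on the plus strand. Capitals mark matches to the letters TATAAA, searched on both strands and picked after the sequences were seen.
Zscan4c: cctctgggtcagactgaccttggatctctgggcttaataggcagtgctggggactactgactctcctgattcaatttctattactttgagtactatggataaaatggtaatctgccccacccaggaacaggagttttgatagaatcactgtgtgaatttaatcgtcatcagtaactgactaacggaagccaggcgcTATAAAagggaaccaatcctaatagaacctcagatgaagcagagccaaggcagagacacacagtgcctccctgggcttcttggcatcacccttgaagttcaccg
Zscan4d: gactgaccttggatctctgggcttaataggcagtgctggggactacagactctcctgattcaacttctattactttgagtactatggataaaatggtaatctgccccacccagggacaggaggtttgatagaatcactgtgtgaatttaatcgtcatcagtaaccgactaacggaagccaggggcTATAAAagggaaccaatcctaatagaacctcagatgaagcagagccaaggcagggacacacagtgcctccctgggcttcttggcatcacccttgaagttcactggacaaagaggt
Zscan4f: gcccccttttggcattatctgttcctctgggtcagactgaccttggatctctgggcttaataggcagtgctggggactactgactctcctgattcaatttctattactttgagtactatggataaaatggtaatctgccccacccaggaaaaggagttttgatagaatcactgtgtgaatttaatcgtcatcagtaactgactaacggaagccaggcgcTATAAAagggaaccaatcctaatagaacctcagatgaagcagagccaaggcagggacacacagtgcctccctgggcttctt

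Aligned without gaps, Zscan4c and Zscan4f shared 99.28% of 277 bases, Zscan4c and Zscan4d 97.23% of 289, and Zscan4d and Zscan4f 97.37% of 266. All 3 windows held TATAAA once, beginning at position -54 in Zscan4c, -65 in Zscan4d and -31 in Zscan4f counted from the annotated start. The annotated starts were therefore not at the same base of the shared sequence. Of the 32851 promoter windows in the table, 13.6% held TATAAA.

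The start regions of Gm4027 and BB287469 are shown for the same reason. They lie at chr12:87618659-87618958 and chr12:87816327-87816626, both on the plus strand.
Gm4027: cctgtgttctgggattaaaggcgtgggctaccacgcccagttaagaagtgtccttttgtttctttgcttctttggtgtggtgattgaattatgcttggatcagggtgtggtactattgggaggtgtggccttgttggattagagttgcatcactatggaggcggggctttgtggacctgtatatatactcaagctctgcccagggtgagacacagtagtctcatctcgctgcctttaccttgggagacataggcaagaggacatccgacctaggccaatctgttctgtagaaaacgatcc
BB287469: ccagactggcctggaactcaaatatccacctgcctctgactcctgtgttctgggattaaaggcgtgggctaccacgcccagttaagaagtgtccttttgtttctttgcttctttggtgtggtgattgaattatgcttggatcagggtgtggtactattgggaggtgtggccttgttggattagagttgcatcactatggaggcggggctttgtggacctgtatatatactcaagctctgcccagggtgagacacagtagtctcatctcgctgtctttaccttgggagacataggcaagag

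Over 259 aligned bases 258 were identical, 99.61%, with an unbroken shared run of 231 bases. Neither window held TATAAA or the motifs searched below, so no letter is in capitals. The gene table lists 3 other coding genes or transcribed pseudogenes between Gm4027 and BB287469, whereas 0 lie between Zscan4c and Zscan4d and 0 between Zscan4d and Zscan4f.

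Zfp352, a zinc finger gene, and Sp110, which encodes a nuclear body protein of the Sp100 family induced by interferon, are on different chromosomes and are shown because their windows shared repeated letters. Zfp352 lies at chr4:90218570-90218869 on the plus strand. The table has 2 windows for Sp110, and the one shown lies at chr1:85603842-85604141 on the minus strand. Capitals mark TATAAGG and ACACCTTTA, picked after the sequences were seen and searched on both strands, without overlap between them.
Zfp352: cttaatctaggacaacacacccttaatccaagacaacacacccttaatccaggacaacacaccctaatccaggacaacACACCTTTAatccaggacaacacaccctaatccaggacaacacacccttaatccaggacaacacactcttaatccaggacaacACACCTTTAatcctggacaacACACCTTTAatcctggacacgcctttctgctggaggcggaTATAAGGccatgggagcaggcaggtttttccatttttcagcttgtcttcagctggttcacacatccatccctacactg
Sp110: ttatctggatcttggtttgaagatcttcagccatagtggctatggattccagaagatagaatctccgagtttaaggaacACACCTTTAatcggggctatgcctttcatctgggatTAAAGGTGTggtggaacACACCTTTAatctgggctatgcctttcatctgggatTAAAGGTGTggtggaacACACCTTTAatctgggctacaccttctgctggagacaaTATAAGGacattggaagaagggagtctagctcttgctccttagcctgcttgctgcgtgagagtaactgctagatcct

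ACACCTTTA occurred 3 times in the Zfp352 window, all on the gene's strand, and 5 times in the Sp110 window, 3 of them on the gene's strand. TATAAGG began at position -28 in Zfp352 and -27 in Sp110. Of all windows 0.371% held ACACCTTTA and 2.17% held TATAAGG. Over the whole windows, these repeats included, 31.88% of 298 aligned bases were identical, and the longest shared run had 15 bases and contained ACACCTTTA. A match is a description of letters and not of binding.

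All 4 knockout arrays stood above all 4 J1 arrays for both several-symbol probe sets and for Usp17la, Tcstv3, 1 probe set of Zfp352 and 1 of Arg2. These 6 of the 13 member probe sets that passed the low-value filter (a log2 of at least 4 in at least 2 arrays) compare with 2.10% of all 43439 fitted probe sets. Since the members were picked on this comparison, the share is a description and nothing is read from it. With LIF both knockout arrays were above both J1 arrays for 9 of 13, against 15.5% of all, and without LIF for 8 of 13, against 15.9%. An averaged difference of at least 1 log2 unit was reached by 8 of 13, against 5.19% of all. The linear model of limma called 0% of all probe sets in each of the 3 genotype contrasts, at a Benjamini-Hochberg adjusted p under 0.05, and 2181 with LIF, 1599 without LIF and 2291 on average had an unadjusted p under 0.05. No p is given for members here because these contrasts chose them.

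**Figure D1:**
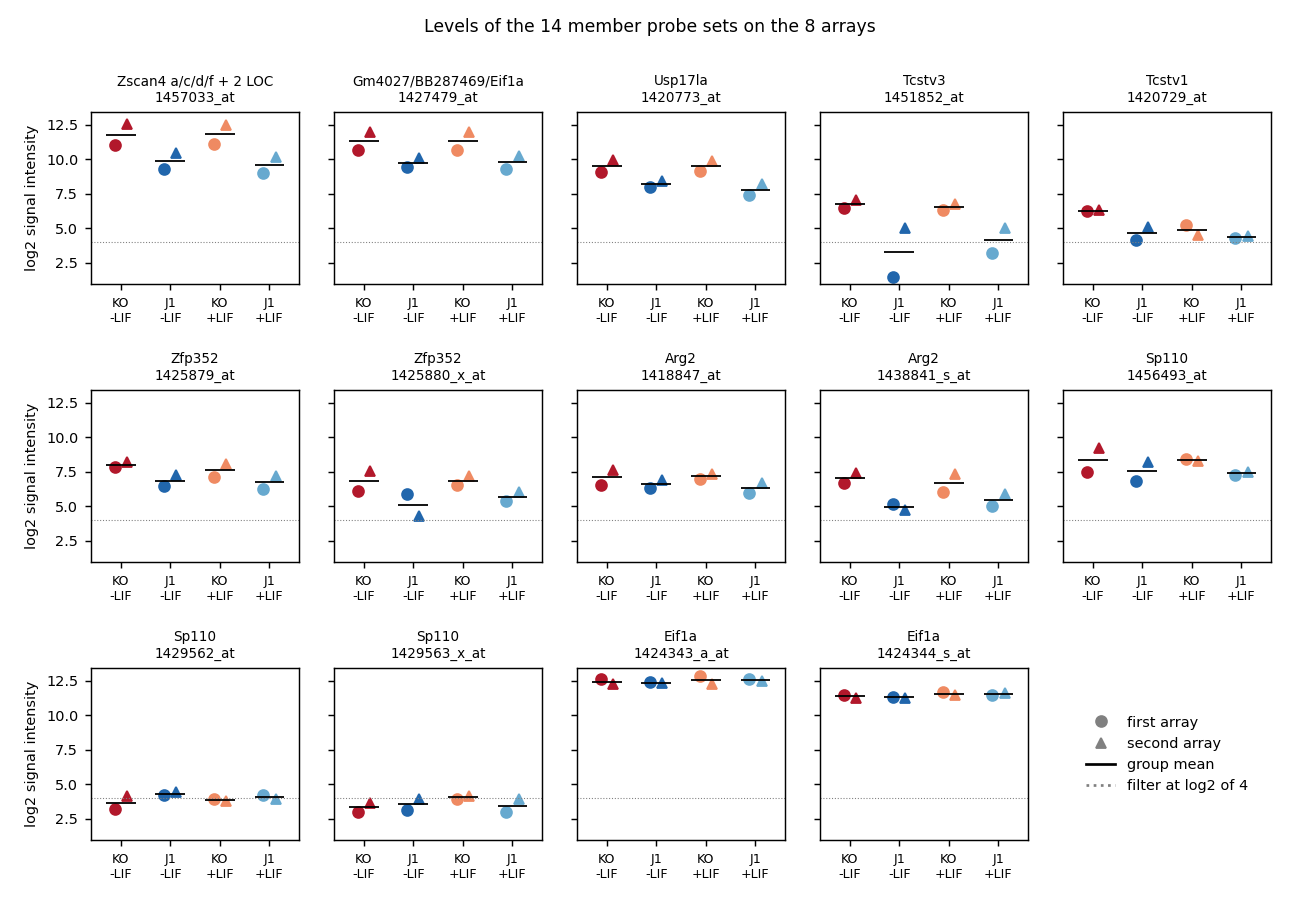
Log2 signal intensity of the 14 member probe sets on the 8 arrays, one panel per probe set on a common axis. Circles are first arrays, triangles second arrays, bars group means, and the dotted line is the filter at 4. The Zscan4 panel shows knockout arrays between 11.03 and 12.52 and J1 arrays between 9.02 and 10.42, while both panels of Eif1a alone are level.

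The shared Zscan4 probe set read 11.03 and 12.52 in knockout cells without LIF, against 9.27 and 10.42 in J1 cells without LIF. It read 11.07 and 12.51 in knockout cells with LIF, against 9.02 and 10.19 in J1 cells with LIF. The lowest knockout array was above the highest J1 array, and the second array was above the first in every group. In linear signal these were 2094 and 5889 in knockout against 617 and 1371 in J1 cells without LIF, and 2145 and 5823 in knockout against 519 and 1166 in J1 cells with LIF. The difference was 1.93 (SE 0.81) without LIF, 2.18 (SE 0.81) with LIF and 2.06 (SE 0.57) on average, a 4.16-fold higher signal in the knockout arrays. This signal is the sum over whichever listed genes the probes detect, which may include LOC100862413 and LOC100862415. It cannot be assigned to Zscan4c, Zscan4d or Zscan4f.

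The probe set shared by Gm4027, BB287469 and Eif1a read 10.62 and 11.94 in knockout cells without LIF, against 9.43 and 10.06 in J1 cells without LIF. With LIF it read 10.68 and 11.94 in knockout cells, against 9.32 and 10.22 in J1 cells. The knockout and J1 arrays did not overlap. Its averaged difference was 1.54 (SE 0.47), 2.91-fold, and the values were 1.54 without LIF and 1.55 with LIF (SE 0.66 each).

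Eif1a, on chromosome 18, encodes the translation initiation factor that helps the small ribosomal subunit find the start codon. Its 2 probe sets of 1 symbol did not show this pattern. One (1424343_a_at) read 12.60 and 12.25 in knockout cells without LIF against 12.38 and 12.32 in J1, and 12.83 and 12.27 in knockout cells with LIF against 12.58 and 12.44 in J1. The other (1424344_s_at) read 11.45 and 11.26 in knockout cells without LIF against 11.33 and 11.26 in J1, and 11.67 and 11.46 in knockout cells with LIF against 11.44 and 11.58 in J1. The groups overlapped in both. The averaged differences were 0.06 (SE 0.20) and 0.06 (SE 0.16), and the first was -0.08 without the first knockout array with LIF. The probe set naming Eif1a beside Gm4027 and BB287469 and those naming Eif1a alone thus gave unlike values, and no test was made between probe sets.

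Usp17la encodes a deubiquitinating enzyme and lies, like the Zscan4 genes, on chromosome 7. It read 9.09 and 9.94 in knockout cells without LIF, against 7.98 and 8.43 in J1 cells, and 9.17 and 9.85 in knockout cells with LIF, against 7.41 and 8.16 in J1 cells. The groups did not overlap, and the averaged difference was 1.52 (SE 0.33), 2.87-fold. It was 1.31 without LIF and 1.73 with LIF (SE 0.46 each).

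Tcstv1 and Tcstv3 belong to a group of transcripts named for their variable presence in the two-cell embryo, and lie on chromosome 13 with 9 coding genes or transcribed pseudogenes between them. Tcstv3 read 6.43 and 7.07 in knockout cells without LIF, against 1.49 and 5.01 in J1 cells, and 6.31 and 6.76 in knockout cells with LIF, against 3.19 and 5.03 in J1 cells. The knockout arrays lay within 1 unit of each other while the J1 arrays were widely spread, with the first J1 array low in both conditions. The averaged difference of 2.96 (SE 0.86) ranked 14 by size among 43439 probe sets, a rank that only describes a member picked on this comparison. The difference was 1.84 when 16 was added to each signal before the log, a setting that shrinks low values. Without the first J1 array lacking LIF it was 2.08.

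Tcstv1 read 6.21 and 6.30 in knockout cells without LIF, against 4.16 and 5.08 in J1 cells. With LIF it read 5.20 and 4.51 in knockout cells, against 4.26 and 4.46 in J1 cells. Knockout arrays without LIF were the high ones, and those with LIF overlapped the J1 arrays without LIF. The difference was 1.63 (SE 0.40) without LIF, 0.50 (SE 0.40) with LIF and 1.06 (SE 0.29) on average. The value with LIF was 0.15 without the first knockout array.

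Zfp352 had 2 probe sets. One (1425879_at) read 7.81 and 8.21 in knockout cells without LIF against 6.46 and 7.23 in J1, and 7.12 and 8.08 in knockout cells with LIF against 6.22 and 7.21 in J1. Here the lowest knockout value lay below the highest J1 values, and the averaged difference was 1.02 (SE 0.37). The other (1425880_x_at), whose suffix marks probes that may also bind other transcripts, read 6.13 and 7.56 in knockout cells without LIF against 5.87 and 4.30 in J1, and 6.50 and 7.18 in knockout cells with LIF against 5.36 and 6.02 in J1. Its groups did not overlap, by a narrow margin, and its averaged difference was 1.45 (SE 0.51).

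Arg2 encodes the mitochondrial arginase, which splits arginine into ornithine and urea. One probe set (1438841_s_at), with a suffix for probes shared between transcripts, read 6.69 and 7.43 in knockout cells without LIF against 5.12 and 4.74 in J1, and 6.0 and 7.32 in knockout cells with LIF against 5.04 and 5.85 in J1. These groups did not overlap, with an averaged difference of 1.67 (SE 0.40). The other (1418847_at) read 6.56 and 7.65 in knockout cells without LIF against 6.31 and 6.88 in J1, and 7.0 and 7.33 in knockout cells with LIF against 5.97 and 6.64 in J1. It overlapped without LIF, and its averaged difference of 0.68 (SE 0.33) was 0.41 without the second knockout array lacking LIF. The probe sets of this gene therefore differed in size though not in direction.

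Sp110 had 3 probe sets that disagreed. The brightest (1456493_at) read 7.44 and 9.24 in knockout cells without LIF against 6.84 and 8.21 in J1, and 8.41 and 8.31 in knockout cells with LIF against 7.28 and 7.47 in J1. It was higher in the knockout arrays with LIF and overlapped without LIF, for an averaged difference of 0.90 (SE 0.50), which was 0.45 without the second knockout array lacking LIF. A dimmer one (1429562_at), between 3.22 and 4.40 on all arrays, had an averaged difference of -0.44 (SE 0.25), which was -0.22 without the first knockout array lacking LIF. The third (1429563_x_at) read between 2.95 and 4.17, did not pass the filter and was not fitted, and its averaged difference was 0.20.

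**Figure D2:**
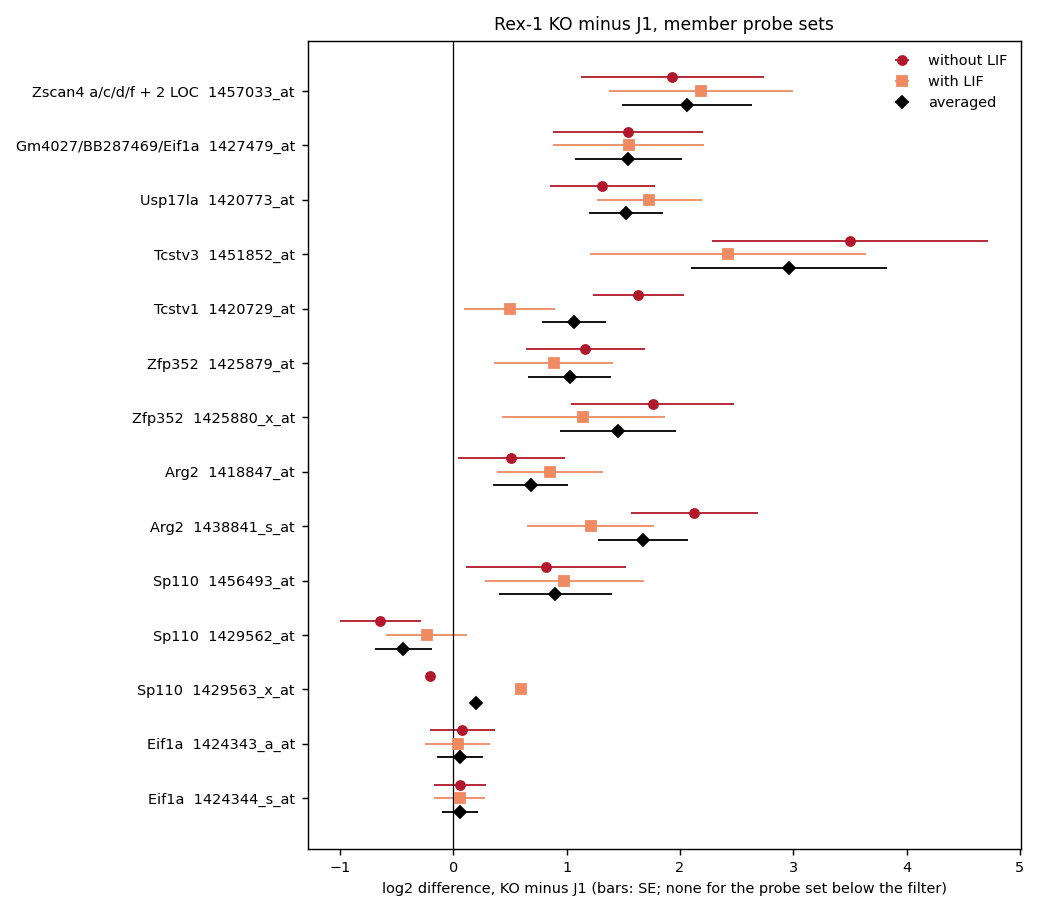
Log2 difference between Rex-1 knockout and J1 arrays for each member probe set, without LIF (circles), with LIF (squares) and averaged (diamonds), with bars of 1 SE from limma. The Zscan4 and Gm4027 probe sets lie at 2.06 and 1.54 on average and both Eif1a probe sets at 0.06.

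Over the 13 fitted members 12 averaged differences were positive and 1 negative. Their median was 1.06, beside 0.02 over all fitted probe sets. The spread of differences across all probe sets was wider at low signal, so size was also ranked among the 6516 probe sets whose log2 values averaged 10 or more, a limit set with the data known. There the Zscan4 probe set ranked 2 and the Gm4027 probe set ranked 3. Rank 1 was a probe set of other two-cell-like genes, listing Gm4340 with 6 more symbols, at 2.25 (SE 0.48), and rank 4 was a probe set without a symbol (1438223_at) at 1.39. The probe sets of Eif1a alone ranked 4300 and 4342. Members were picked on this comparison, and the list holding rank 1 was drawn up with earlier results of these arrays known. The ranks and counts are therefore a description, and nothing is read from them.

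**Figure D3:**
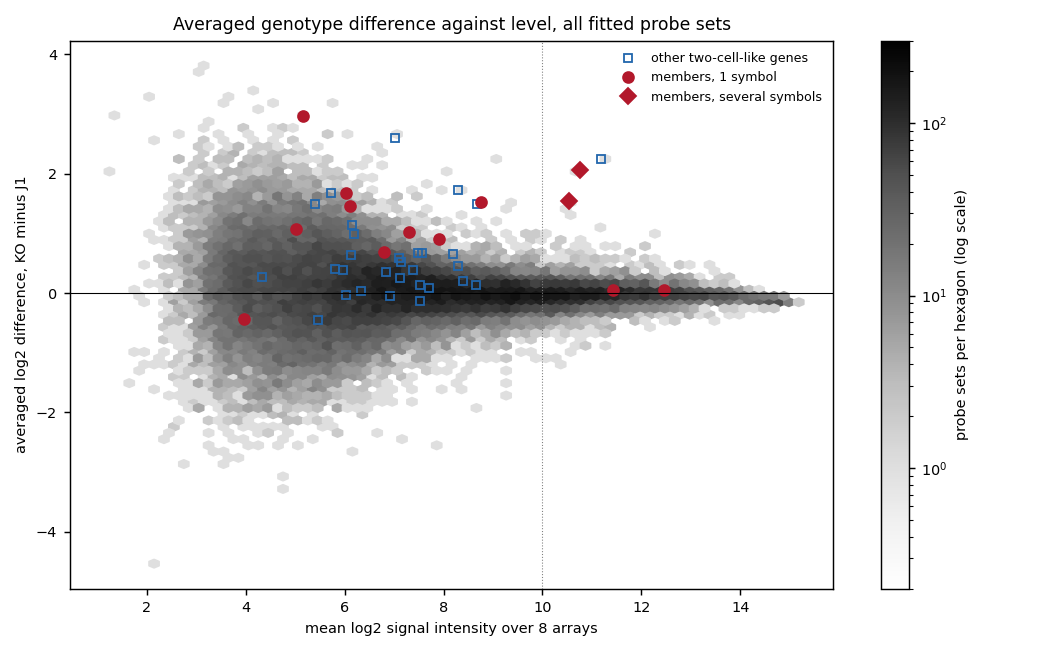
Averaged log2 difference, Rex-1 knockout minus J1, against mean log2 signal of all 43439 fitted probe sets (grey, darker where more probe sets fall). Filled red marks are members, open blue squares other two-cell-like genes, and the dotted line is a mean of 10, to the right of which the 2 several-symbol probe sets stand at 2.06 and 1.54.

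Withdrawal of LIF was not used to choose the members and was tested. In limma 0% of all probe sets were called in knockout cells, in J1 cells, on average and for the interaction, with 1770, 1567, 1748 and 1543 of 43439 at an unadjusted p under 0.05. Among the 13 members 0 were called in any of these contrasts, and the smallest adjusted p was 0.99992. At an unadjusted p under 0.05 there was 1 member in knockout cells and on average, Tcstv1 in both, and 0 in J1 cells and for the interaction. The median member difference, without minus with LIF, was -0.01 in knockout cells, 0.13 in J1 cells and 0.04 on average, beside -0.01 for all probe sets in each.

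The Zscan4 probe set differed by -0.01 (SE 0.81) between knockout cells without and with LIF and by 0.24 (SE 0.81) in J1 cells. For the Gm4027 probe set the differences were -0.03 and -0.02 (SE 0.66 each), and for Usp17la 0.001 and 0.42 (SE 0.46 each). For these 3 the pairs of arrays with and without LIF overlapped in both lines. Tcstv1 had the largest value among members, 1.39 (SE 0.40) in knockout cells, with 6.21 and 6.30 without LIF against 5.20 and 4.51 with LIF. Its limma p was 0.0147 unadjusted and its adjusted p 0.99992, so it was not called, and in J1 cells it differed by 0.26 (SE 0.40). The difference between the lines in this response was 1.13 (SE 0.57), also not called. Not one member had all 4 arrays without LIF above, or all 4 below, those with LIF, against 1.02% and 1.33% of all probe sets.

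**Figure D4:**
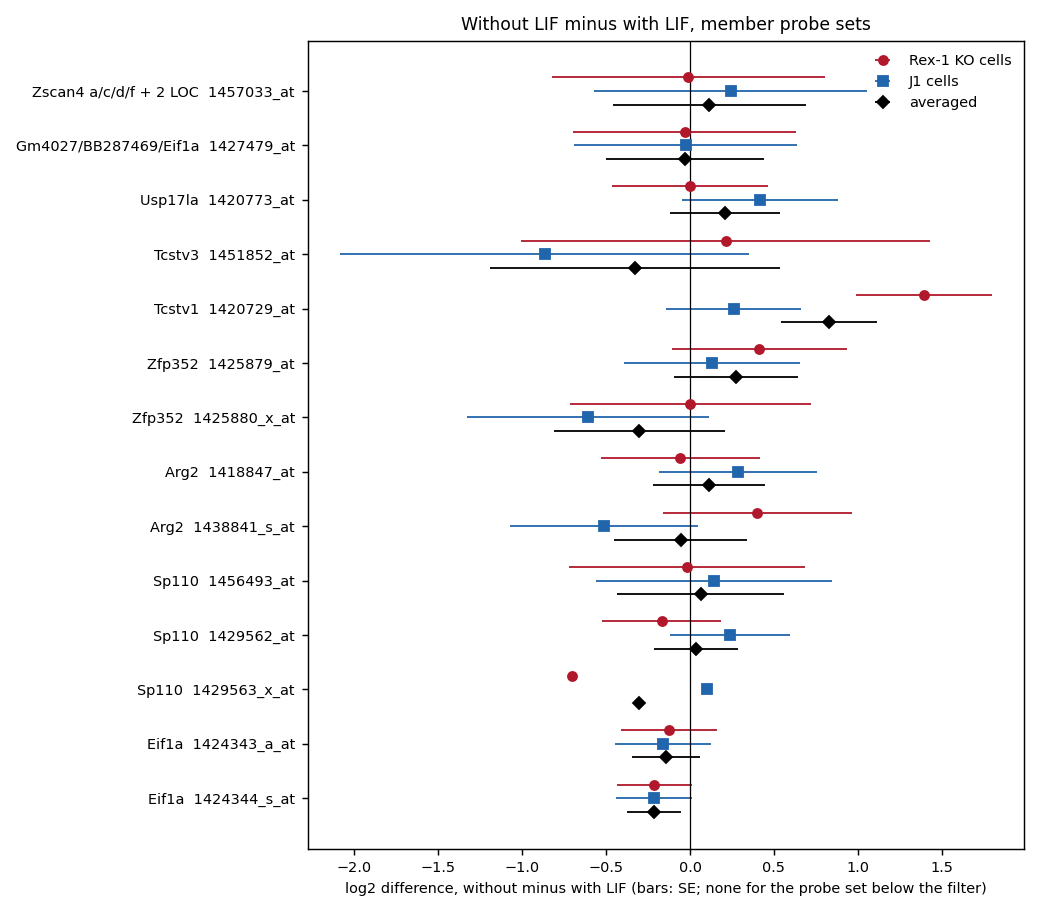
Log2 difference without LIF minus with LIF for each member probe set in Rex-1 knockout cells (circles), J1 cells (squares) and averaged (diamonds), with bars of 1 SE. Most bars cross 0, and Tcstv1 in knockout cells stands at 1.39.

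Within each line and condition the second array was often higher than the first. This held in all 4 groups for 6 of 13 members, the 2 several-symbol probe sets, Usp17la, Tcstv3, and 1 probe set each of Zfp352 and Arg2, against 16.7% of all probe sets. For the Zscan4 probe set the second array exceeded the first by 1.49 in knockout cells without LIF, 1.15 in J1 without LIF, 1.44 in knockout cells with LIF and 1.17 in J1 with LIF. For the Gm4027 probe set these were 1.32, 0.63, 1.26 and 0.90 in the same order. Nothing in the labels says what the first and second arrays share. Taken array by array, knockout minus J1 was 1.76 and 2.05 for the first arrays and 2.10 and 2.32 for the second arrays of the Zscan4 probe set, without and with LIF. For this probe set the genotype difference was thus positive in first and in second arrays. Since it was picked on this difference over the same arrays, this is a description and nothing is read from it. The part of the array difference in it was not tested beyond these values.

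**Figure D5:**
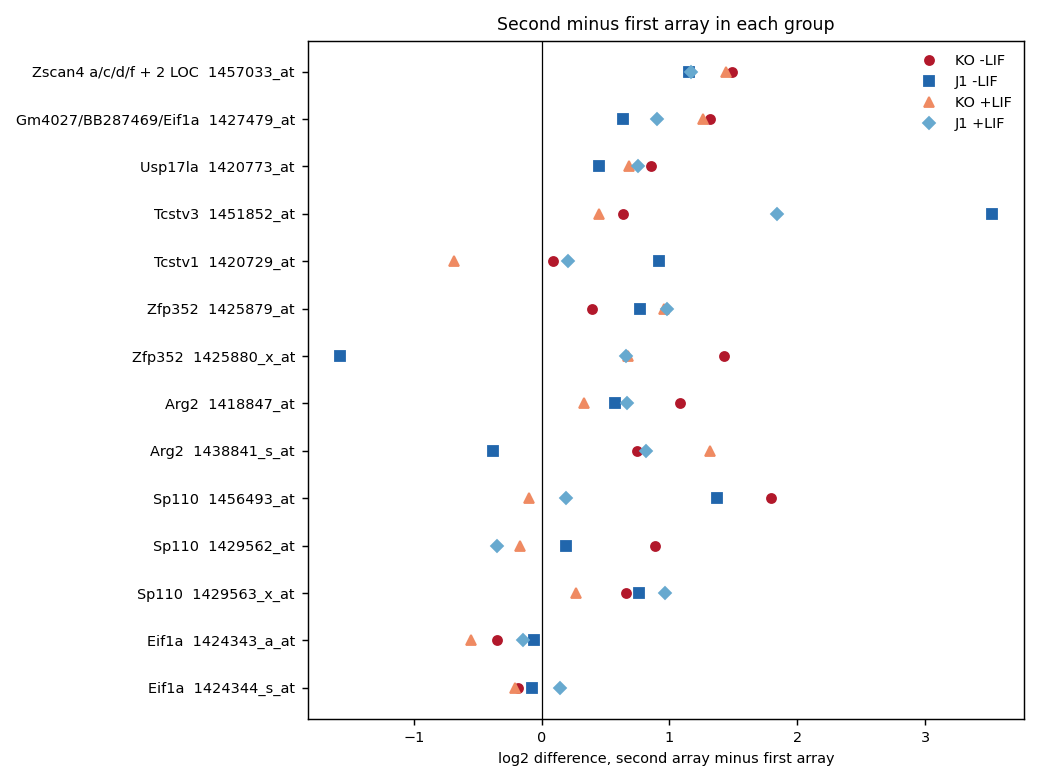
Log2 difference between the second and the first array of each group for each member probe set. The Zscan4 probe set lies between 1.15 and 1.49 in all 4 groups, and the first Eif1a probe set lies below 0 in all 4.

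The members were set beside each other by Pearson's r with the Zscan4 probe set over the 8 arrays, given without a p because the arrays share genotype and array order. Members were picked on the genotype difference of these arrays, which by itself raises r between them. The values of r are therefore a description, and nothing is read from them. The value was 0.99 for the Gm4027 probe set, 0.98 for Usp17la, 0.95 and 0.73 for Zfp352, 0.94 and 0.89 for Arg2, 0.89 for Tcstv3 and 0.60 for Tcstv1. It was 0.83, 0.58 and -0.39 for Sp110, and -0.32 and -0.05 for Eif1a alone. Among 5248 other single-symbol probe sets averaging 7 or more in log2 and spanning at least 1 unit, those most like the members' mean were Gm7969 (r = 0.977), Polr3f (0.967), Marveld1 (0.966), 8030474K03Rik (0.961), LOC664787 (0.951), Ctsh (0.943), a further Gm7969 probe set (0.940) and Rnf17 (0.935). Gm7969 read 8.59 and 9.18 in knockout cells without LIF against 6.71 and 7.34 in J1, and 8.67 and 8.78 in knockout cells with LIF against 6.73 and 7.66 in J1. Polr3f, a subunit of RNA polymerase III, differed by 0.80 (SE 0.23) on average. The 3 most like the Zscan4 probe set were Marveld1 (r = 0.979), Polr3f (0.974) and Pramel7 (0.958), and those most like the Gm4027 probe set were Marveld1 (0.983), LOC664787 (0.971) and Rnf17 (0.968).

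A list of other genes known from the two-cell-like state held 55 genes, of which 29 were on the array and 25 had fitted probe sets, 30 in all. It was drawn up with earlier results of these arrays known. On average 26 were higher and 4 lower in knockout arrays, with 0 called by limma in either direction and a smallest adjusted p of 0.652. The median was 0.43 beside 0.02 for all, and 7 of the 30 had all knockout arrays above all J1 arrays, beside 2.10% of all probe sets, a share from which nothing is read because the list was drawn up with these results known. The 3 largest were Gm20767 at 2.61 (SE 0.71), the Gm4340 probe set at 2.25 (SE 0.48), and the probe set of Gm2022, Gm8300 and Gm5662 at 1.73 (SE 0.29). Gm20767 lies near Tcstv1 on chromosome 13 and read 8.39 and 8.63 in knockout cells without LIF against 5.57 and 6.39 in J1, and 8.10 and 8.20 in knockout cells with LIF against 3.88 and 7.06 in J1. The Gm4340 probe set read 11.76 and 12.76 in knockout cells without LIF against 9.42 and 10.64 in J1, and 11.95 and 12.76 in knockout cells with LIF against 9.44 and 10.71 in J1. Neither overlapped between the lines.

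Regulators of the state, from Dux-activating factors to chromatin repressors, were also measured. Of 36 genes 33 were on the array, in 88 probe sets, of which 38 were higher and 50 lower in the knockout arrays with 0 called. Their median was -0.03, and the largest values were -0.93 (SE 0.81) for a probe set of Setdb1, a histone methyltransferase that silences retroelements, -0.67 (SE 0.77) for a probe set of Pias4 and -0.65 (SE 0.24) for one of Ncl. This Setdb1 probe set read between 4.07 and 6.98, and brighter ones of the same gene went the other way, at 0.22 (SE 0.35) and 0.16 (SE 0.24). The Pias4 probe set read between 1.91 and 5.04, and a brighter one of that gene was at -0.08 (SE 0.22). Dppa2, an activator of Dux, read 0.31 (SE 0.15) and 0.25 (SE 0.17) in 2 probe sets and its partner Dppa4 0.06 (SE 0.23). Duxf3, the annotated symbol for Dux, is counted in the list of other two-cell-like genes and not among these regulators. It had a single-symbol probe set at -0.03 (SE 0.29) and shared another with Gm9919 and Gm4981 at 0.98 (SE 0.84).

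The pathways of 3 members were set beside them. Interferon response genes and the Sp100 family, to which Sp110 belongs, had 18 probe sets higher and 15 lower of 33, with 0 called and a median of 0.07. Their largest values were 2.07 (SE 0.81) for Usp18, -2.00 (SE 0.83) for Ifih1 and 1.79 (SE 0.99) for a probe set of Rsad2. This Rsad2 probe set read between 1.52 and 5.69, and others of the gene were at 0.46 and -0.06. Usp18 read between 2.10 and 6.87 over the arrays, and Ifih1 between 1.90 and 6.40. Arginine and polyamine genes, beside Arg2, had 18 higher and 20 lower of 38, 0 called and a median of -0.03. They were led by a probe set of Otc at 2.39 (SE 0.57), which read between 1.22 and 5.71 over the arrays. Others of Otc were at 0.08 (SE 0.85) and 0.01 (SE 0.93). Arg1, the cytosolic arginase, came next in size at 1.28 (SE 0.91) and read between 1.63 and 5.30. A probe set of Slc7a2, an arginine transporter, was at -1.16 (SE 0.42). Others of Slc7a2 went the other way, at 0.84 (SE 0.27), 0.60 (SE 0.24) and 0.30 (SE 0.82). Translation start factors, beside Eif1a, had a median of -0.04 over 41 probe sets with 0 called, led by -0.53 (SE 0.30) for a probe set of Eif1ax, 0.53 (SE 0.21) for one of Eif2s2 and -0.50 (SE 0.37) for one of Eif5b.

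Markers of embryonic stem cells and of other cells were summed per array in linear signal. The embryonic stem cell markers include Zfp42, the gene named by the knockout label, whose bright probe set differed by -0.21 (SE 0.16) on average. The 13 probe sets of 8 embryonic stem cell markers summed to 87197 to 97892 in knockout cells without LIF, 89299 to 102830 in J1 without LIF, 100420 to 107333 in knockout cells with LIF and 91109 to 119378 in J1 with LIF. These ranges overlap between the lines, and 7 probe sets were higher and 6 lower in the knockout arrays, with a median difference of 0.01 beside 0.02 for all and 0 called. The largest were a probe set of Fgf4 at -0.39 (SE 0.97), one of Nanog at 0.30 (SE 0.22) and a further one of Fgf4 at 0.28 (SE 0.34).

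Fibroblast or feeder markers, 22 probe sets of 12 genes, were lower in the knockout arrays for 18 probe sets and higher for 4, with a median of -0.40 beside 0.02 for all and 0 called by limma. Their sum in the first arrays was 18500 in knockout cells without LIF against 39586 in J1, and 23745 in knockout cells with LIF against 44891 in J1. In the second arrays it was 12185 in knockout cells without LIF against 12501 in J1, and 16900 in knockout cells with LIF against 17173 in J1. The sum was thus highest in the first J1 arrays, which are also the lowest J1 arrays for the Zscan4 and Gm4027 probe sets, Usp17la and Tcstv3, and it was nearly equal between the lines in the second arrays, where the Zscan4 difference was 2.10 without LIF and 2.32 with LIF. The list's median second-minus-first difference was -0.59, and its largest genotype values were -1.90 (SE 1.90) for Tagln, -1.89 (SE 1.67) for a probe set of Col1a1 and -1.21 (SE 1.63) for one of Col1a2. A linear sum gives most weight to the brightest probe sets, and those of Vim read 13.57, 13.09 and 12.96 in the first J1 array with LIF. The 4 higher probe sets were of S100a4 (0.85), Col1a2 (0.59), Postn (0.56) and Thy1 (0.38).

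The summed linear signal of trophoblast markers, 16 probe sets of 8 genes, was also highest in the first J1 arrays. The sums in the first arrays were 8789 in knockout cells without LIF against 26355 in J1, and 10863 in knockout cells with LIF against 28327 in J1. In the second arrays the sums were 4197 in knockout cells without LIF against 4216 in J1, and 4848 in knockout cells with LIF against 5797 in J1. On average 8 probe sets were higher and 8 lower, with a median of 0.08 and 0 called. The largest values were -1.76 (SE 1.62) for a probe set of Krt8, -1.20 (SE 1.16) for Krt18 and -1.19 (SE 0.83) for a probe set of Cdx2. This sum too gives most weight to bright probe sets. The Krt18 probe set averaged 10.41 in log2, and a further probe set of Krt8, at -1.09 (SE 1.20), averaged 10.02.

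Extraembryonic endoderm markers, 24 probe sets of 9 genes, summed to 1718 to 2136 in knockout cells without LIF against 1602 to 1786 in J1, and to 1739 to 2331 in knockout cells with LIF against 1466 to 1783 in J1. With LIF 21 of 24 were higher in the knockout arrays, with a median of 0.44 beside 0.01 for all, and without LIF 10 of 24, with a median of -0.07 beside 0.02. On average 15 were higher and 9 lower with 0 called, led by probe sets of Afp at 1.48 (SE 0.91), Foxa2 at 1.29 (SE 0.60) and Sox17 at -0.90 (SE 0.85), while another Sox17 probe set was at 0.84 (SE 0.19). The Afp probe set at 1.48 read between 1.65 and 5.23, and others of Afp were at 0.55, -0.47 and -0.22. No probe set of these lists was at 0, since the deposited signals are all above it. The part of other cells in the member differences was not tested beyond these values.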

How the data were processed

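Total RNA from 8 cultures was measured on Affymetrix arrays. The values used are the authors' deposited signal intensity per probe set, on a linear scale. The submitters' processing notes name GCRMA without version or role, and the deposited columns, whose means after trimming 2% at each end lie close together, are not in its usual log form, so the step that made them is not known. No detection value was used and low signals carry an unknown share of background. The arrays give no genome build.

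Of 45101 probe sets, 64 controls were left out. After log2, with no pseudocount, the 43439 probe sets that reached 4 in 2 or more arrays were fitted with limma 3.58.1 in R 4.3.3 (1 mean per group, 8 arrays, eBayes, 4 residual degrees of freedom), with Benjamini-Hochberg adjustment over all of them in each of 7 contrasts and a threshold of 0.05. The fit was tested on simulated data. Names came from the platform annotation, with 34945 probe sets of 1 symbol, 932 of several and 9160 of none listed here. All 10 member genes matched the RefSeq table of GRCm38.p6.

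The members and gene lists were chosen with earlier results of these data known. Named genes are all member probe sets, the 3 of largest averaged genotype difference per list, the 8 probe sets most like the members' mean and the 3 most like each member, and Zfp42. Of the probe sets most like each member, only those for the 2 several-symbol probe sets are printed. Others named, such as Dppa2, Dppa4 and Duxf3, were chosen after their values were seen.

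Alternatives were the filter, quantile normalization, a pseudocount of 16, a trended and robust prior, fewer arrays in the fit, the title's replicate letter as a block, and leaving out each array. The difference between second and first array correlated between groups at 0.0496 to 0.198 over all probe sets, with 2 of 6 pairs of groups under 0.1. Over the probe sets averaging 10 or more in log2 the range was 0.318 to 0.771. The reported fit has no block, since not every pair exceeded 0.1 over all fitted probe sets, and whether the letter marks a pairing was not settled. Figures used matplotlib 3.10.9 in Python 3.11.15.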

Additional observations from a re-analysis of the deposited data

How the results depend on the processing

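The number of probe sets called by limma was 0 in all 7 contrasts and stayed 0 under each alternative run, except that a trended and robust prior called 1 in the averaged genotype contrast, the probe set 1438223_at without a symbol (difference 1.39, adjusted p = 0.0471). It is no member, and the cause was not tested. The median member difference for the averaged genotype contrast ran from 0.83 to 1.35 over the arrays left out and kept its sign. For LIF withdrawal on average it ran from -0.19 to 0.30. Of 181 member values recomputed for the averaged genotype contrast 2 changed sign, both of Eif1a, and of 181 for LIF withdrawal on average 27 did. No member was called for LIF under any alternative, with a smallest adjusted p of 0.420. With the replicate letter as a block, which called 0 in each contrast, the SE of the averaged genotype difference was 0.14 in place of 0.57 for the Zscan4 probe set, 0.18 in place of 0.47 for the Gm4027 probe set and 0.14 in place of 0.33 for Usp17la. The labels do not say what the letter marks. The number of arrays limits the precision, and the filter removed 1 member, Sp110 at 1429563_x_at.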
